A study of Mus musculus with 11 samples.

Results

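The AP-1 transcription factors measured here comprised the 4 Fos genes (Fos, Fosb, Fosl1 and Fosl2), the 3 Jun genes (Jun, Junb and Jund), the stress-induced factor Atf3 and the small Maf genes Maff and Mafk. These 10 genes were taken by name from the 15022 genes of the count table, and all 10 passed the filter on low counts that left 13040 genes for testing. They were followed in NIH-3T3 cells, an established wild-type mouse embryonic fibroblast line, after exposure to AS1411 or to a control DNA oligonucleotide. AS1411 is a guanine-rich DNA aptamer that folds into G-quadruplexes and binds nucleolin, and the control carried cytosine where AS1411 has guanine. Both were given at 10 µM, and polyadenylated RNA was sequenced from 3 AS1411 and 3 control libraries at 24 h and from 2 AS1411 and 3 control libraries at 48 h. The 2 oligonucleotides, each of 26 bases, are shown in full because their difference is the only one that the labels give between the treated and control cells of a time point.
AS1411: GGTGGTGGTGGTTGTGGTGGTGGTGG
Control oligonucleotide: CCTCCTCCTCCTTCTCCTCCTCCTCC

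AP-1 is a dimer of basic leucine zipper (bZIP) proteins, usually a Jun protein with a Fos protein or with a second Jun protein. Fos, Fosb, Jun and Junb are immediate-early genes, which serum, growth factors and stress switch on through MAP kinases, and in fibroblasts AP-1 drives genes of proliferation, matrix breakdown and wound repair. ATF3 is a bZIP protein of the ATF/CREB group that is induced by many stresses and can pair with Jun proteins. MAFF and MAFK lack a transactivation domain and act with larger partners such as NRF2 and BACH1 at antioxidant and Maf recognition elements.

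Total counts per library ran from 13541951 to 18784497. Of 9 fibroblast markers, 8 were measured, with vimentin (Vim) at 2274 to 3053 and Col1a1 at 923 to 2183 in counts-per-million units (CPM), whereas Col3a1 was at only 1.97 to 18.9 and Thy1 was not analysed here. Of 15 markers of blood, epithelium, endothelium, nerve and glia, 4 were measured. Of these, Kdr, Cdh5 and Gfap stayed at or below 1.33 CPM, Cdh5 and Gfap were at 0 in at least 1 library, and Tubb3, which marks neurons, was at 30.9 to 53.9 CPM. Of the 48 h control libraries, replicate 2 was unlike the others: its chi-square per gene was 9.05 and 12.1 against them, while they differed from each other by 4.73, and all other pairs within a group were at 1.53 to 3.92. Whether the replicates came from separate cultures is not stated in the labels. The p-values therefore reflect only the variation among these libraries, which may be technical. In RNA from whole cultures, fewer cells expressing a gene and less RNA per cell cannot be told apart.

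After 48 h with AS1411, 7 of the 10 genes were higher than in control cells, 1 was lower and 2 did not pass the test. Levels below are CPM after TMM scaling of library sizes, and differences are log2 fold changes ± SE with adjusted p-values from edgeR's quasi-likelihood test over all genes tested. Across all genes, 29.4% were called higher and 28.5% lower at 48 h. The median log2 fold change of the 10 genes was 1.51, against 0.01 for all genes tested. The largest differences were those of Atf3 (7.01-fold), Fos (4.76-fold), Junb (3.91-fold) and Fosb (3.77-fold), followed by Maff (2.98-fold), Mafk (2.74-fold) and Jun (1.62-fold). Without control replicate 2 at 48 h, 9 genes were higher and 1 lower.

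After 24 h, only Jund, Maff and Mafk passed the test, all 3 higher with AS1411, where 13.1% of all genes were called higher and 16.7% lower. None of the 10 was called lower by edgeR or by DESeq2, and 1 was lower at an unadjusted p under 0.05. The median of the 10 genes was 0.24 on the log2 scale, and that of all genes was 0.01. A fit to the 24 h libraries alone, over 12233 genes, called 6 of the 10 higher and 2 lower, where 22.2% and 22.7% of all genes were called. Without control replicate 2 at 48 h, the fit over all groups called 4 higher and 2 lower at 24 h.

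**Figure D1:**
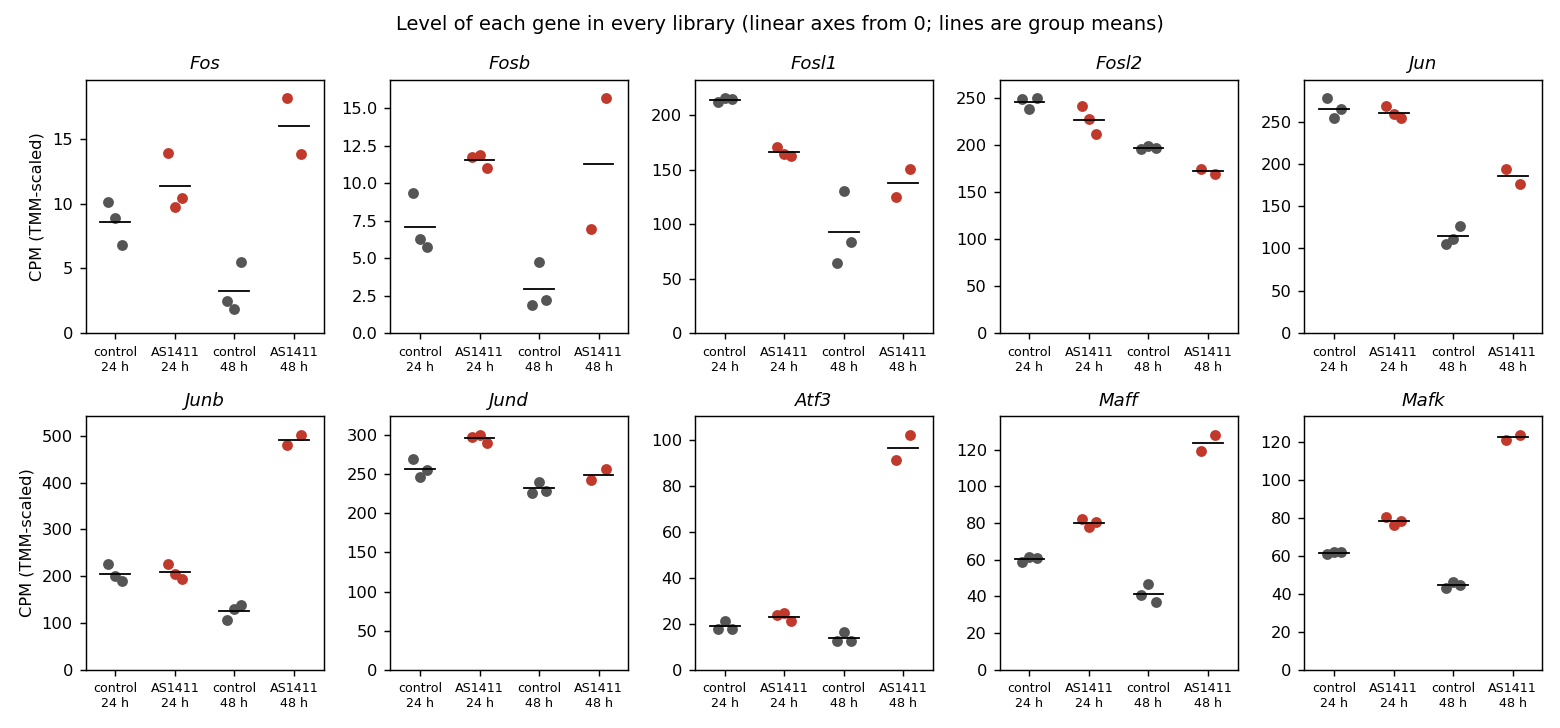
Level of each gene in every library, in CPM on a linear axis starting at 0, with 1 point per library and a bar at the mean of each group (3, 3, 3 and 2 libraries). Atf3, Junb, Maff and Mafk stand highest in the AS1411 libraries at 48 h (91.2 and 102 CPM for Atf3), whereas Jun falls from 24 h to 48 h in both treatments and lies lowest in control cells at 48 h (106 to 126 CPM).

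Atf3 (chromosome 1, 191170296 to 191218039, minus strand, GRCm38) showed the largest difference at 48 h. Its level was 91.2 and 102 CPM in the AS1411 libraries at 48 h and 12.3, 16.5 and 12.4 CPM in control cells. The 24 h levels were 23.7, 24.5 and 21.1 CPM with AS1411 and 17.9, 21.4 and 17.6 CPM in control cells. Both AS1411 libraries at 48 h therefore lay far above every other library, while the groups overlapped at 24 h. The difference was 2.81 ± 0.11 at 48 h (adjusted p = 1.7e-11, edgeR) and 0.28 ± 0.11 at 24 h (adjusted p = 0.0657, edgeR). The 24 h difference passed the threshold in 6 of 20 alternative fits, among them the fit to the 24 h libraries alone (0.29 ± 0.08, adjusted p = 0.00297, edgeR). Within AS1411 cells Atf3 rose from 24 h to 48 h by 2.07 ± 0.10 (adjusted p = 5.1e-10, edgeR), and in control cells it fell by 0.46 (SE 0.12, adjusted p = 0.00928, edgeR). Without control replicate 2 at 24 h the fall in control cells was 0.36 on the log2 scale and no longer passed (adjusted p = 0.0597, edgeR).

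RefSeq promoter windows on GRCm38.p6, covering 250 bases before to 50 bases after an annotated start, were matched by symbol for 9 of the 10 genes, in 11 windows, and Fosl1 had none. They were searched on both strands for TGANTCA (the AP-1 site), TNACGTCA (a form of the CRE, which ATF/CREB proteins bind), TGACATCA (a variant in which Jun and ATF2 dimers bind the JUN promoter in human cells), TGATGNAA (a composite ATF and C/EBP site) and the CArG box of serum response factor. The motifs were chosen after the sequences had been seen, and no match of one motif overlapped a match of another. Among all 32851 windows of this length, 7.81% held TGANTCA, 2.93% TNACGTCA, 3.62% TGACATCA, 3.97% TGATGNAA and 1.63% a CArG box. No member window held TGANTCA or a CArG box. Sequence outside the windows and other forms of these motifs were not searched, so an absence holds only for these windows and patterns. Matches lay in windows of Atf3, Maff and Jun. The windows of Fos, Fosb, Junb and Mafk, which were also higher with AS1411 at 48 h, held none, nor did those of Fosl2 and Jund. The Jund window (chr8:70697489-70697788) ended before the annotated gene (70698949 to 70700616), so it may not be the promoter of the counted gene. The Atf3 window lay inside the annotated gene, whose 5′ end is at 191218039. For the windows with a match, the 250 bases before the start are shown, 5′ to 3′ on the strand of the gene, with the matches in capitals. They are the Atf3 window at chr1:191183334-191183583 (minus strand), the Maff windows for a pair of its starts at chr15:79347270-79347519 and chr15:79348152-79348401 (plus strand), and the Jun window at chr4:95052223-95052472 (minus strand).
Atf3: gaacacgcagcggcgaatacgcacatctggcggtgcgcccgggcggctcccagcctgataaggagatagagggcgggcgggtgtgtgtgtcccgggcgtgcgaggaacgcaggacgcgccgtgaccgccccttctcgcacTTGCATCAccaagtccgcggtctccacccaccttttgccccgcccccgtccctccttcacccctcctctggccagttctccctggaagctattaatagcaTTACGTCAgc
Maff, the second start: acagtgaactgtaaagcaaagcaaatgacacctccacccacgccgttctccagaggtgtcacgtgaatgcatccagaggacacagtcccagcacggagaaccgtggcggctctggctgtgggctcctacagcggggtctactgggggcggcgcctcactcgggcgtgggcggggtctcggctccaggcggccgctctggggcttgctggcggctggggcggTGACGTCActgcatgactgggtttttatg
Maff, the third start: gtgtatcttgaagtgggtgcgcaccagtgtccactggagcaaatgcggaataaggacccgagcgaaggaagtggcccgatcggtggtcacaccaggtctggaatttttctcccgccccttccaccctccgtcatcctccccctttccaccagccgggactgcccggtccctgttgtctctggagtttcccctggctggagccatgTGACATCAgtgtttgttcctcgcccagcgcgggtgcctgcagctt
Jun: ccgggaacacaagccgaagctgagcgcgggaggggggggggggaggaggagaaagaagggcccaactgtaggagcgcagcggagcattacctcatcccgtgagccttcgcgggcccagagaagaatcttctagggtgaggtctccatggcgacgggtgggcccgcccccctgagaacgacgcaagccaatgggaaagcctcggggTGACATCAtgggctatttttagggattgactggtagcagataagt
In Atf3 the CRE-type match TTACGTCA began 10 bases before the start, and TTGCATCA, the reverse complement of a TGATGNAA match, began 110 bases before it. Maff held TGACGTCA 29 bases before its second start and TGACATCA 45 bases before the third start. Jun held TGACATCA 45 bases before its start. A match describes the letters in a window and says nothing of binding in these cells.

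Among the Jun genes, Junb showed the strongest response. Junb (chromosome 8, 84974484 to 84978718), a Jun protein that is a weaker activator than JUN at many AP-1 sites, was at 481 and 502 CPM with AS1411 at 48 h and at 107, 131 and 138 CPM in control cells. At 24 h the levels were 226, 204 and 194 CPM with AS1411 and 225, 201 and 189 CPM in control cells. The groups overlapped at 24 h and stood far apart at 48 h, where the difference was 1.97 ± 0.11 (adjusted p = 2.4e-07, edgeR). At 24 h it was 0.02 ± 0.10 (adjusted p = 0.905, edgeR). Over time Junb rose in AS1411 cells by 1.24 ± 0.11 (adjusted p = 1.0e-05, edgeR) and fell in control cells by 0.71 (SE 0.10, adjusted p = 8.8e-04, edgeR). The 3′ end of Junb overlaps an exon of Prdx2 on the opposite strand, and whether strand was used in counting is not given in the sources used here. Prdx2 itself differed by 0.08 ± 0.04 at 48 h (adjusted p = 0.122, edgeR).

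Jun (chromosome 4, 95049034 to 95052222), the founding member of the family, had a different course. It was at 194 and 176 CPM with AS1411 at 48 h and at 106, 111 and 126 CPM in control cells, so the groups did not overlap. Earlier, at 24 h, Jun was at 268, 259 and 254 CPM with AS1411 and at 277, 254 and 265 CPM in control cells, where the groups overlapped. The 48 h difference was 0.70 ± 0.06 (adjusted p = 9.8e-08, edgeR), and that at 24 h was -0.03 ± 0.06 (adjusted p = 0.758, edgeR). Jun fell from 24 h to 48 h in both treatments, by 1.21 (SE 0.06, adjusted p = 2.9e-10, edgeR) in control cells and by 0.49 (SE 0.06, adjusted p = 8.9e-06, edgeR) in AS1411 cells. Its higher level with AS1411 at 48 h was therefore still below the 24 h level of every library. The antisense gene Junos, with 176 counts over all libraries, shares exon sequence with Jun and differed by 0.57 ± 0.30 at 48 h (adjusted p = 0.114, edgeR).

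Jund (chromosome 8, 70698949 to 70700616), which is expressed steadily in most cells and restrains growth in fibroblasts, varied least among the Jun genes. Its level was 297, 300 and 290 CPM with AS1411 and 269, 247 and 256 CPM in control cells at 24 h. At 48 h it was 242 and 257 CPM with AS1411 and 226, 240 and 229 CPM in control cells. The groups did not overlap at either time, but the differences were small, at 0.20 ± 0.04 at 24 h (adjusted p = 0.00144, edgeR) and 0.11 ± 0.05 at 48 h (adjusted p = 0.0624, edgeR). At 48 h the difference passed with library-size scaling (0.25), with upper-quartile scaling (0.16) and without control replicate 2 at 48 h (0.13, adjusted p = 0.0114, edgeR). It was 0.053 without AS1411 replicate 2 at 48 h (adjusted p = 0.476, edgeR). Jund fell with time in AS1411 cells by 0.25 (SE 0.05, adjusted p = 2.9e-04, edgeR) and in control cells by 0.15 (SE 0.04, adjusted p = 0.0141, edgeR). The fall in control cells did not pass in 4 of 20 alternatives. Jund overlaps the antisense gene Gm11175, which was not analysed here.

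The Fos genes split into scarce and abundant ones. Fos (chromosome 12, 85473890 to 85477273), the prototype of the family, had only 30 to 318 counts per library. It was at 18.1 and 13.8 CPM with AS1411 at 48 h and at 2.49, 1.84 and 5.53 CPM in control cells. The 24 h levels of Fos were 13.9, 9.71 and 10.4 CPM with AS1411 and 10.1, 8.93 and 6.82 CPM in control cells. The groups overlapped at 24 h and did not at 48 h, where the difference was 2.25 ± 0.36 (adjusted p = 5.9e-04, edgeR) after 0.39 ± 0.30 at 24 h (adjusted p = 0.384, edgeR). In the fit to the 24 h libraries alone, the 24 h difference was 0.39 ± 0.14 (adjusted p = 0.0344, edgeR). With single libraries left out of the fit over all groups, it ran from 0.218 without AS1411 replicate 1 to 0.529 without control replicate 1 at 24 h. In control cells Fos fell by 1.37 (SE 0.36, adjusted p = 0.0252, edgeR) between the times. That fall did not pass without control replicate 1 (-1.22) or 2 (-1.34) at 24 h, nor without control replicate 1 (-1.21) or 2 (-1.06) at 48 h. In AS1411 cells the change was 0.50 ± 0.31 (adjusted p = 0.214, edgeR) and passed in the fit to the AS1411 libraries alone (adjusted p = 0.0108, edgeR) and without control replicate 3 at 48 h (adjusted p = 0.0251, edgeR). Leaving out AS1411 replicate 1 or 2 at 48 h gave 0.277 or 0.669, and neither passed.

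Fosb (chromosome 7, 19302696 to 19310051), an immediate-early gene whose product can be spliced to a form without a transactivation domain, had 27 to 240 counts per library. It was at 6.96 and 15.6 CPM with AS1411 at 48 h and at 1.87, 4.71 and 2.23 CPM in control cells. The 24 h levels of Fosb were 11.7, 11.9 and 11 CPM with AS1411 and 9.32, 6.24 and 5.72 CPM in control cells. The groups did not overlap at either time, although the pair of AS1411 libraries at 48 h lay far apart. The difference was 1.92 ± 0.45 at 48 h (adjusted p = 0.00643, edgeR), with 1.22 to 2.43 when single libraries were left out, the lowest without AS1411 replicate 2 at 48 h and the highest without control replicate 2 at 48 h. At 24 h it was 0.68 ± 0.36 (adjusted p = 0.203, edgeR), and 0.69 ± 0.13 in the fit to the 24 h libraries alone (adjusted p = 7.6e-05, edgeR). The change with time was -1.28 ± 0.44 in control cells (adjusted p = 0.0724, edgeR), which passed in 6 of 20 alternatives, and -0.05 ± 0.38 in AS1411 cells (adjusted p = 0.934, edgeR). The sign in AS1411 cells turned with library-size scaling (0.0535) and without AS1411 replicate 1 at 48 h (0.43).

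Fosl1 (chromosome 19, 5447547 to 5455946) encodes FRA-1, the Fos protein linked to migration and invasion. It was at 170, 165 and 163 CPM with AS1411 at 24 h and at 212, 215 and 215 CPM in control cells. At 48 h it was at 125 and 151 CPM with AS1411 and at 64.6, 130 and 83.7 CPM in control cells, where control replicate 2 held the highest value. At 24 h every AS1411 library lay below every control library, and at 48 h the groups overlapped through that single control library. The difference was -0.37 ± 0.21 at 24 h (adjusted p = 0.25, edgeR) and 0.56 ± 0.25 at 48 h (adjusted p = 0.088, edgeR). Without control replicate 2 at 48 h, Fosl1 was lower at 24 h (-0.36, adjusted p = 0.0159, edgeR) and higher at 48 h (0.89 ± 0.12, adjusted p = 3.7e-04, edgeR). The 48 h difference also passed with library-size scaling (0.71, adjusted p = 0.032, edgeR) and non-robust dispersion (adjusted p = 0.0123, edgeR), and was 0.364 without control replicate 1 at 48 h (adjusted p = 0.155, edgeR). The fit to the 24 h libraries alone gave -0.36 ± 0.03 (adjusted p = 4.9e-12, edgeR). In control cells Fosl1 fell by 1.20 between the times (SE 0.22, adjusted p = 0.00697, edgeR), and in AS1411 cells it changed by -0.27 ± 0.24 (adjusted p = 0.403, edgeR), a change that passed in the fit to the AS1411 libraries alone (adjusted p = 0.002, edgeR). Without AS1411 replicate 1 or 2 at 48 h it was -0.146 or -0.420, and neither passed. Exons of Fosl1 overlap those of Ccdc85b on the opposite strand, which was lower with AS1411, at -0.20 ± 0.06 at 24 h and -0.45 ± 0.07 at 48 h.

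Fosl2 (chromosome 5, 32135801 to 32157842), which encodes FRA-2, was the only one of the 10 genes called lower with AS1411 at 48 h. It was at 174 and 170 CPM with AS1411 at 48 h and at 195, 199 and 197 CPM in control cells. The 24 h levels of Fosl2 were 241, 228 and 212 CPM with AS1411 and 249, 238 and 249 CPM in control cells, where the groups overlapped. The difference at 48 h was -0.20 ± 0.05 (adjusted p = 0.00241, edgeR), a fall that library-size scaling reduced to -0.05 (adjusted p = 0.379, edgeR). At 24 h it was -0.11 ± 0.04 (adjusted p = 0.0578, edgeR), and it passed in 4 of 20 alternatives, among them the fit to the 24 h libraries alone (-0.10, adjusted p = 0.0201, edgeR). Leaving out single libraries gave -0.16 without AS1411 replicate 1 and -0.066 without AS1411 replicate 3 at 24 h as the extremes. Fosl2 fell with time in both treatments, by 0.32 (SE 0.04) in control cells and by 0.40 (SE 0.05) in AS1411 cells, with adjusted p-values of 4.4e-05 and 3.3e-06 by edgeR.

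The small Maf genes Maff and Mafk moved in parallel. Maff (chromosome 15, 79346621 to 79359076) was at 119 and 128 CPM with AS1411 at 48 h and at 40.6, 46.8 and 37.0 CPM in control cells. The 24 h levels of Maff were 82.4, 77.7 and 80.5 CPM with AS1411 and 59.0, 61.4 and 61.2 CPM in control cells. The groups did not overlap at either time, with differences of 0.41 ± 0.06 at 24 h (adjusted p = 1.5e-04, edgeR) and 1.58 ± 0.07 at 48 h (adjusted p = 6.3e-12, edgeR). Mafk (chromosome 5, 139791513 to 139802653) was at 121 and 123 CPM with AS1411 at 48 h and at 42.9, 46.3 and 44.7 CPM in control cells. Its 24 h levels were 80.2, 76.3 and 78.3 CPM with AS1411 and 60.9, 61.8 and 61.9 CPM in control cells. Again no AS1411 library reached down to a control library, and the differences were 0.35 ± 0.05 at 24 h (adjusted p = 2.4e-05, edgeR) and 1.45 ± 0.05 at 48 h (adjusted p = 1.3e-13, edgeR). Both rose with time in AS1411 cells, by 0.62 ± 0.07 for Maff and 0.64 ± 0.05 for Mafk. Both fell in control cells, by 0.55 (SE 0.07) for Maff and by 0.46 (SE 0.05) for Mafk. Tmem184a, a gene with 459 counts over all libraries whose last exon overlaps that of Mafk on the opposite strand, was also higher at 48 h (2.26 ± 0.22, adjusted p = 1.0e-07, edgeR). Mafk had 12770 counts over the same libraries.

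The time changes within each treatment show how the 48 h differences were made up. In control cells 9 of the 10 genes fell between 24 h and 48 h and Fosb did not pass, where 13.2% of all genes were called lower and 11.6% higher. None rose by edgeR or by DESeq2, nor at an unadjusted p under 0.05. The median of the 10 genes was -0.63. In AS1411 cells Atf3, Junb, Maff and Mafk rose, Jun, Jund and Fosl2 fell, and Fos, Fosb and Fosl1 did not pass, where 24.5% of all genes were called higher and 24.6% lower. The 48 h comparison and the time comparison in control cells use the same control libraries, so a low value there enters both.

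**Figure D2:**
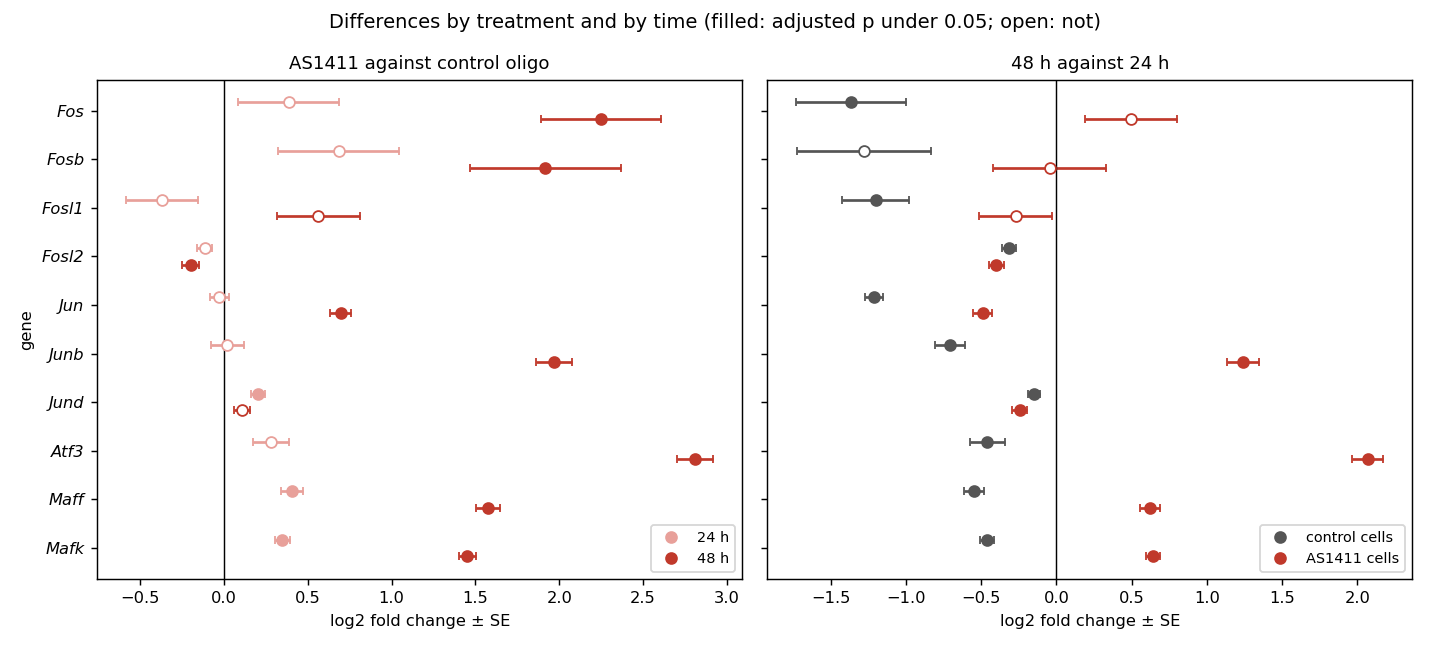
Log2 fold change ± SE of each gene, on the left for AS1411 against control at 24 h (light) and 48 h (dark) and on the right for 48 h against 24 h in control cells (grey) and AS1411 cells (red), with filled points for an adjusted p under 0.05 by edgeR. All 10 control-cell values lie below 0, from -0.15 for Jund to -1.37 for Fos, whereas in AS1411 cells the values spread from -0.49 for Jun to 2.07 for Atf3.

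The treatment effect itself differed between the times for 6 of the 10 genes. In the test of that difference, the 48 h effect exceeded the 24 h effect by 2.53 ± 0.16 for Atf3 (adjusted p = 2.3e-08, edgeR), 1.95 ± 0.15 for Junb (adjusted p = 1.6e-05, edgeR) and 1.86 ± 0.48 for Fos (adjusted p = 0.0199, edgeR). The excess was 1.17 ± 0.10 for Maff, 1.10 ± 0.07 for Mafk and 0.72 ± 0.09 for Jun, with adjusted p-values of at most 1.2e-05 by edgeR. Of all genes tested, 13.4% had a higher and 14.1% a lower effect at 48 h, and none of the 10 was lower by edgeR, by DESeq2 or at an unadjusted p under 0.05. The excess was 1.23 ± 0.59 for Fosb (adjusted p = 0.161, edgeR) and 0.93 ± 0.33 for Fosl1 (adjusted p = 0.0746, edgeR). For Fosl1 it passed with DESeq2 (0.92, adjusted p = 0.0458), with non-robust dispersion (adjusted p = 0.00825, edgeR) and without control replicate 2 at 48 h (1.25, adjusted p = 5.0e-04, edgeR). For Fos it was 1.64 without AS1411 replicate 1 at 48 h (adjusted p = 0.0742, edgeR), and for Fosb it was then 1.70 (adjusted p = 0.0227, edgeR). The Fosb value was 1.74 without control replicate 2 at 48 h and 0.535 without AS1411 replicate 2 at 48 h, and neither passed. The values for Fosl2 (-0.08 ± 0.07) and Jund (-0.10 ± 0.06) did not pass.

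Levels of different genes were compared as CPM per kilobase of annotated exon. In control cells at 24 h Jund was highest at 154, followed by Fosl1 at 105, Junb at 89.2, Jun at 83.2, Fosl2 at 25.4, Maff at 23.3, Mafk at 15.8, Atf3 at 8.79, Fos at 3.66 and Fosb at 1.14 CPM per kilobase. Only Junb and Jun overlapped among neighbours in that order. In AS1411 cells at 48 h Junb was highest at 214, followed by Jund at 150, Fosl1 at 67.7, Jun at 58.2, Maff at 47.7, Atf3 at 44.9, Mafk at 31.3, Fosl2 at 17.7, Fos at 6.80 and Fosb at 1.81 CPM per kilobase. Maff and Atf3 overlapped there and no other neighbours did. Junb thus moved ahead of Jund, and Atf3 moved ahead of Mafk and Fosl2.

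In AS1411 cells at 24 h the order was Jund (177), Junb (90.5), Jun (81.7), Fosl1 (81.6), Maff (30.9), Fosl2 (23.4), Mafk (20.1), Atf3 (10.7), Fos (4.82) and Fosb (1.85 CPM per kilobase), with overlap only between Jun and Fosl1. In control cells at 48 h it was Jund (139), Junb (54.5), Fosl1 (45.7), Jun (35.9), Fosl2 (20.4), Maff (16.0), Mafk (11.4), Atf3 (6.39), Fos (1.40) and Fosb (0.471 CPM per kilobase), where Junb overlapped with Fosl1, and Fosl1 with Jun. With the longest transcript as the length, the levels of Maff (60.9 and 65.4) and Jun (61.0 and 55.3 CPM per kilobase) overlapped in AS1411 cells at 48 h. Maff then no longer overlapped Atf3 (46.0 and 51.5). By that length Junb (104 to 124) overlapped Fosl1 (114 to 116) and not Jun (79.7 to 87.0) in control cells at 24 h. In AS1411 cells at 24 h Fosl1 (87.3 to 91.5) then no longer overlapped Jun (79.7 to 84.0). Which isoforms were present was not measured.

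The make-up of the Jun family differed most in AS1411 cells at 48 h. Junb held a mean of 50.7% of the summed Jun family level (50.3% and 51.0%), against 23.7% in control cells at 48 h (21.6% to 25.3%), 25.9% in AS1411 cells at 24 h and 27.3% in control cells at 24 h. Jund held 35.5% with AS1411 and 60.7% in control cells at 48 h, and Jun held 13.8% and 15.6%. The summed level was 421 ± 8.48 CPM per kilobase with AS1411 at 48 h (SD, n = 2) and 229 ± 12 in control cells (SD, n = 3). In the Fos family Fosl1 held most of the summed level in every group, at 77.8% in control and 73.1% in AS1411 cells at 24 h, and 66.0% and 71.8% at 48 h. The mean share of Fos at 48 h was 2.18% in control cells and 7.31% in AS1411 cells. The summed Fos family level was 94.1 ± 8.42 with AS1411 (SD, n = 2) and 67.9 ± 16.8 CPM per kilobase in control cells (SD, n = 3) at 48 h, and at 24 h it was 112 ± 4.32 and 136 ± 0.221 (SD, n = 3 each). The small Maf sum was 79.0 ± 2.80 with AS1411 and 27.4 ± 2.21 CPM per kilobase in control cells at 48 h. Shares and sums are descriptions, and no test was made on them.

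**Figure D3:**
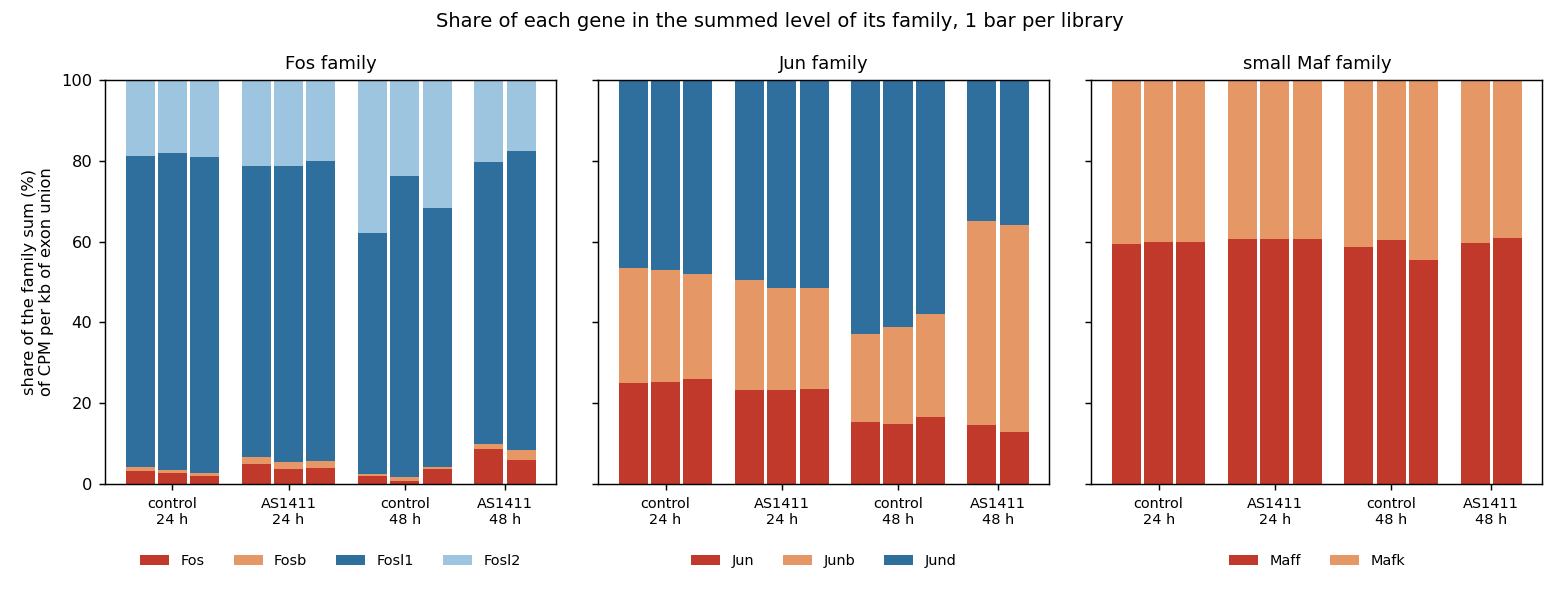
Share of each gene in the summed level of its family (percent of CPM per kilobase of exon), with 1 stacked bar per library. The small Maf panel holds Maff and Mafk but not Mafg. Junb fills 50.3% and 51.0% of the Jun family bars of AS1411 cells at 48 h and 21.6% to 28.3% in every other library, whereas Maff and Mafk keep similar shares in all groups.

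Genes reported as AP-1 targets in mammalian cells, such as secreted proteases, growth factors and cytokines, were mostly higher with AS1411 at 48 h. Of 22 listed targets 20 were tested, and 16 were higher and 1 lower at 48 h (29.4% and 28.5% of all genes), with a median of 0.80. The chemokine Ccl2 was at 49.9 and 53.9 CPM with AS1411 at 48 h and at 8.03 to 9.71 CPM in control cells (2.55 ± 0.10, adjusted p = 1.1e-12, edgeR), after 17.2 to 20.5 and 17.1 to 20.8 CPM at 24 h. The EGF-family ligand Ereg was at 37.8 and 43.7 CPM with AS1411 and at 15.0 to 15.9 CPM in control cells at 48 h (1.39 ± 0.08, adjusted p = 7.7e-11, edgeR). At 24 h Ereg had been at 66.4 to 74.4 CPM with AS1411 and 66.8 to 70.4 CPM in control cells, so, like Jun, it fell in both treatments. Vegfa, a vascular growth factor, was higher by 0.64 ± 0.06, and osteopontin (Spp1) was lower, at -0.66 ± 0.10. Without control replicate 1 at 48 h, 2 targets were lower.

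At 24 h 2 of these 20 targets were higher and 4 lower (13.1% and 16.7% of all genes). The cytokine Il11 was among the higher ones (0.99 ± 0.34, adjusted p = 0.0336, edgeR), and Spp1 (-1.10 ± 0.09), cyclin D1 (Ccnd1, -0.31 ± 0.05) and Timp1 (-0.19 ± 0.04) were lower. Il11 was at no more than 1.26 CPM at 24 h, and its call did not pass with DESeq2 or without AS1411 replicate 1 or 3 or control replicate 1 or 2 at 24 h. In the fit to the 24 h libraries alone 6 targets were higher and 6 lower (22.2% and 22.7% of all genes). Without control replicate 2 at 48 h 4 were higher and 6 lower. In control cells 16 of the 20 targets fell between 24 h and 48 h (13.2% of all genes), with a median of -1.01. None rose by edgeR, by DESeq2 or at an unadjusted p under 0.05. In AS1411 cells 6 rose and 4 fell (24.5% and 24.6% of all genes), with a median of 0.05. Without control replicate 2 at 48 h or in the fit to the AS1411 libraries alone, 7 fell. The 48 h log2 fold change lay above that at 24 h for 15 of the 20 (13.4% of all genes). It lay below for none by edgeR, by DESeq2 or at an unadjusted p under 0.05. The 15 include Spp1 (-1.10 at 24 h, -0.66 at 48 h) and Ccnd1 (-0.31 and -0.08), whose differences from control cells were smaller at 48 h. Mmp9 was not analysed here and Il6 did not pass the filter.

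**Figure D4:**
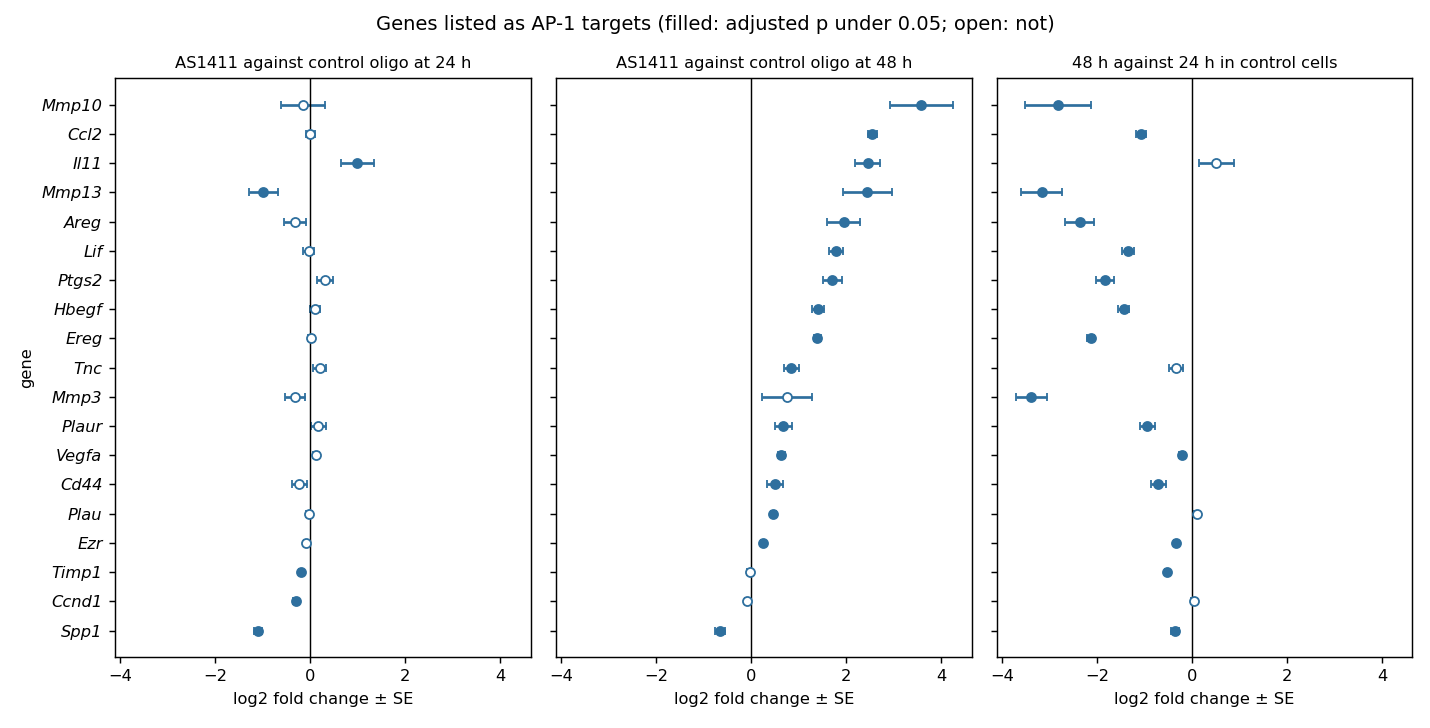
Log2 fold change ± SE of 19 AP-1 targets for AS1411 against control at 24 h (left) and at 48 h (middle) and for 48 h against 24 h in control cells (right), ordered by the 48 h value, with filled points for an adjusted p under 0.05 by edgeR. At 48 h the values run from -0.66 for Spp1 to 3.58 for Mmp10, which did not exceed 0.913 CPM in any library. Ereg is at 1.39 in that panel and at -2.14 over time in control cells.

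Dimer partners of AP-1 and of the small Mafs were measured for 13 of 17 listed genes, since Batf, Batf2, Nfe2 and Nrl were not analysed here. At 48 h 5 were higher and 4 lower (29.4% and 28.5% of all genes), with a median of 0.01. Mafg, the remaining small Maf gene, was higher by 0.38 ± 0.05, Atf2, a Jun partner, by 0.29 ± 0.05 and Nfe2l2, which encodes NRF2, by 0.19 ± 0.05. The large Maf gene Maf (-0.57 ± 0.08) and the Jun partner Atf7 (-0.36 ± 0.07) were among the lower ones. At 24 h Mafg was the only higher gene (0.19 ± 0.05), where 13.1% of all genes were called higher. Nfe2l2 (-0.28 ± 0.04) and Maf (-0.28 ± 0.07) were among 4 lower genes (16.7% of all genes). Library-size scaling left 1 gene lower, and 2 were lower without AS1411 replicate 3 or control replicate 1 at 24 h. The call of Mafg at 24 h did not pass without AS1411 replicate 1 at 24 h.

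Of 20 other bZIP genes, 7 were higher and 7 lower at 48 h, shares near the 29.4% and 28.5% of all genes. Ddit3, which encodes the stress factor CHOP, was at 68.1 and 69.6 CPM with AS1411 and at 24.2 to 26.7 CPM in control cells (1.46 ± 0.08, adjusted p = 3.4e-11, edgeR). Crem, a cAMP-responsive factor, was higher by 1.48 ± 0.14 and Creb3 by 0.94 ± 0.06. The circadian-output factor Hlf (-1.42 ± 0.17), Creb1 (-0.59 ± 0.06) and Atf6b (-0.37 ± 0.05) were lower. At 24 h 4 were higher and 3 lower (13.1% and 16.7% of all genes). Creb3 (0.45 ± 0.06), Atf5 (0.44 ± 0.06) and Atf4 (0.19 ± 0.05), a factor of the integrated stress response, were higher. Creb1 (-0.32 ± 0.05), Atf1 (-0.24 ± 0.04) and Cebpa (-0.65 ± 0.15) were lower. The fit to the 24 h libraries alone called 7 higher and 6 lower (22.2% and 22.7% of all genes), and 5 were lower without control replicate 3 at 48 h. With library-size scaling 4 were lower at 48 h.

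Of 24 genes for MAP kinases, their activators and the SRF and TCF factors that regulate Fos, 2 were higher and 12 lower at 48 h (29.4% and 28.5% of all genes). The median of these 24 genes was -0.22. The kinase gene Rps6ka3 (-0.57 ± 0.06) and the TCF gene Elk3 (-0.46 ± 0.05) were lower, whereas the TCF genes Elk1 (0.33 ± 0.07) and Elk4 (0.40 ± 0.11) were higher. Library-size scaling moved this split to 7 higher and 6 lower, and Elk4 did not pass without AS1411 replicate 2 at 48 h (adjusted p = 0.0587, edgeR). At 24 h 3 were higher (13.1% of all genes), namely Elk1 (0.23 ± 0.06), Map2k7 (0.15 ± 0.05) and Mrtfa (0.14 ± 0.05). Another 5 were lower (16.7% of all genes), among them Rps6ka3 (-0.23 ± 0.05) and Map2k4 (-0.17 ± 0.05). The higher count was 1 without AS1411 replicate 1, AS1411 replicate 3 or control replicate 2 at 24 h. The lower count was 1 with library-size scaling, and 2 without AS1411 replicate 3 or control replicate 1 or 2 at 24 h. Transcript levels of kinases say nothing of their activity.

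Of 8 genes for the turnover and cofactors of Jun and Fos proteins, 6 were lower at 48 h (28.5% of all genes) and none was higher by edgeR or DESeq2, or at an unadjusted p under 0.05. They included the ubiquitin ligase genes Fbxw7 (-0.52 ± 0.09), Det1 (-0.52 ± 0.11) and Cop1 (-0.29 ± 0.08), whose products mark Jun for degradation. With library-size scaling 2 were lower and 1 higher, and Cop1 did not pass (adjusted p = 0.141, edgeR). At 24 h 2 were lower (16.7% of all genes), Det1 among them (-0.34 ± 0.09). In the fit to the 24 h libraries alone 4 were lower (22.7% of all genes). Without AS1411 replicate 3 at 24 h none was lower by edgeR, and 1 was lower with DESeq2, with library-size or upper-quartile scaling or without any single control library at 24 h.

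Antioxidant genes on which NRF2 and small Maf proteins act were mostly lower with AS1411 at 24 h. Of 8 such genes, 7 were lower (16.7% of all genes), with a median of -0.29, and none was higher by edgeR or DESeq2, or at an unadjusted p under 0.05. Heme oxygenase (Hmox1) was at 152 to 162 CPM with AS1411 and at 223 to 236 CPM in control cells (-0.54 ± 0.04, adjusted p = 8.1e-08, edgeR), and G6pdx (-0.32 ± 0.05) and Txnrd1 (-0.25 ± 0.05) were also lower. At 48 h 2 were higher and 3 lower (29.4% and 28.5% of all genes). Nqo1, a quinone reductase, was higher by 0.27 ± 0.10 and Txnrd1 by 0.13 ± 0.05, neither of which passed with DESeq2, and Txnrd1 did not pass in 14 alternatives. Nqo1 also did not pass without AS1411 replicate 1 at 48 h. G6pdx (-0.47 ± 0.06), Srxn1 (-0.33 ± 0.06) and the glutathione synthesis gene Gclm (-0.27 ± 0.05) were lower. The effect at 48 h was above that at 24 h for 3 of the 8 (13.4% of all genes), with a median difference of 0.23. It was below the 24 h effect for none by edgeR, by DESeq2 or at an unadjusted p under 0.05. Within AS1411 cells 3 rose and 2 fell with time (24.5% and 24.6% of all genes).

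Genes with the most similar pattern were sought by Pearson's r of log2 CPM over the 11 libraries among 10178 other genes. These libraries share their groups, so r describes similarity only. For Atf3 they were Pip5k1a (0.994), Rrm2b (0.990) and Gadd45a (0.989), and for Junb they were Ccl2 (0.993), Relb (0.991) and Procr (0.986). Jun was closest to Phlda1 (0.994), Ereg (0.987) and Ext1 (0.984). Maff and Mafk were close to each other (0.991), and further to Arf2 (0.987) and Plk3 (0.986) for Maff and to Rmc1 (0.996) and Homer3 (0.987) for Mafk. For Jund the genes were Syde1 (0.986), Ltbr (0.948) and Chpf (0.944). Among Fos genes, Fos was closest to Sh2b2 (0.964), Twsg1 (0.962) and Btg2 (0.957), and Fosb to Sdccag8 (0.969), Litaf (0.961) and Nr4a1 (0.951). Fosl1 was closest to Bcar1 (0.964), Ccbe1 (0.955) and Cd44 (0.951), and Fosl2 to Zfp36l2 (0.978), Foxp1 (0.969) and Pthlh (0.967). Among the 10 genes, r was 0.96 between Atf3 and Junb, 0.87 between Jun and Fosl1 and -0.58 between Atf3 and Fosl2.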

How the data were processed

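NIH-3T3 RNA was sequenced after polyA selection from samples with a RIN above 9, per the labels' protocols. The authors deposited raw counts per gene. Per the submitters' processing notes, bcl2fastq, cutadapt, STAR, HTSeq and DESeq2 were used with GRCm38. No version or strand setting was found in the labels or file headers. The deposited table of normalized values was not used. No gene had a total below 8 counts, so scarcer genes were not analysed here. Identifiers were matched to GENCODE release M21 (14973 of 15022 genes), which also gave exon lengths.

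The counts were filtered with filterByExpr by group, scaled by TMM and fitted with edgeR 4.0.16 (R 4.3.3, limma 3.58.1) by robust quasi-likelihood over all 11 libraries, with 1 coefficient per group and 7 residual degrees of freedom. Tests were two-sided, p-values were adjusted by Benjamini-Hochberg over 13040 genes, and the threshold was 0.05. The SE is the size of the log2 fold change divided by the square root of F. Total counts were 13541951 to 18784497, so precision is lowest for Fos and Fosb. Alternatives were other scalings, DESeq2 1.42.0, other filters, non-robust dispersion, fits to the compared libraries only, a replicate block, a threshold of 0.01, transcript length and each library left out. Further genes were named by a rule: of each list, up to 3 called genes in each direction with the smallest adjusted p at each time, and for each member the 3 genes most similar over libraries with a mean log2 CPM of at least 2. Mmp10, at the end of a plotted range, and the genes that overlap a member were named outside this rule after their values were seen. A few genes of the lists count in the totals but are not reported here by name. The members and lists were chosen with earlier results of these data known.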

Additional observations from a re-analysis of the deposited data

Results flagged for a closer look

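The listed genes had an effect of AS1411 that differed between 48 h and 24 h in edgeR's test of the difference itself, with a Benjamini-Hochberg adjusted p under 0.05. Values are the 48 h minus the 24 h log2 fold change.

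Among the AP-1 genes the differences were 2.53 for Atf3, 1.95 for Junb, 1.86 for Fos, 1.17 for Maff, 1.10 for Mafk and 0.72 for Jun. For AP-1 targets they were 2.55 for Ccl2, 1.46 for Il11, 1.38 for Ereg, 0.51 for Vegfa, 0.44 for Spp1 and 0.23 for Ccnd1. Spp1 was lower with AS1411 at both times, so its positive value means a smaller fall. Ccnd1, at -0.31 at 24 h and -0.08 at 48 h, likewise differed less from control cells at 48 h. For bZIP partners and other bZIP genes they were 1.53 for Ddit3, 1.21 for Crem, 0.49 for Creb3, 0.48 for Nfe2l2, 0.39 for Atf2, -0.27 for Creb1, -0.28 for Atf5, -0.30 for Atf6b and -1.23 for Hlf. For MAP kinase, SRF and TCF genes and Jun turnover they were 0.50 for Elk4, -0.31 for Elk3, -0.34 for Rps6ka3, -0.45 for Mrtfa and -0.45 for Fbxw7. For antioxidant genes they were 0.71 for Nqo1, 0.61 for Hmox1 and 0.37 for Txnrd1.

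Without AS1411 replicate 1 at 48 h, Fos (1.64, adjusted p = 0.0742, edgeR), Il11, Spp1 and Ccnd1 did not pass. Without AS1411 replicate 2 at 48 h, Creb1, Atf5, Elk4 and Ccnd1 did not pass. Atf5, Elk4, Il11, Spp1 and Ccnd1 also did not pass without 1 or more of the 24 h libraries. Il11 and Ccnd1 did not pass with DESeq2, and Creb1 and Atf5 did not with library-size scaling.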

How the results depend on the processing

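At 24 h, 3 AP-1 genes were called. The count was 5 with the replicate block and 8 with only the 24 h libraries, and 3 to 6 when single libraries were left out (6 without control replicate 2 at 48 h). The higher count was 6 with only the 24 h libraries. The lower count, 0 over all libraries, was 1 with the replicate block, 2 with only the 24 h libraries and 0 to 2 when single libraries were left out (1 without AS1411 replicate 1 at 24 h, 2 without control replicate 2 at 48 h). At 48 h, library-size scaling reduced the lower count from 1 to 0. All other counts of AP-1 genes called stayed within 1.5 times. The sign turned for Jun at 24 h with library-size (0.0515) and upper-quartile scaling (0.00027), and leaving out single libraries gave -0.0512 to 0.0137 (positive without control replicate 1 at 24 h). For Junb at 24 h, leaving out single libraries gave -0.0440 to 0.10 (negative without AS1411 replicate 1 or control replicate 3). For Fosb over time in AS1411 cells it turned with library-size scaling (0.0535), and leaving out single libraries gave -0.73 to 0.43 (positive without AS1411 replicate 1 at 48 h). None of these values passed the threshold, and the cause was not tested.

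Whether replicate numbers pair the samples could not be told from the libraries. Same-numbered AS1411 and control libraries had correlations of their deviations from -0.08 to 0.02 at 24 h, and AS1411 replicate 1 correlated most with control replicate 3. With 3 libraries per group at 24 h, such values cannot show whether the samples were paired. The values of 0.19 and 0.35 at 48 h rest on a group of 2, whose deviations mirror each other.

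Library-size scaling moved the median log2 fold change of all genes to 0.09 at 24 h and 0.16 at 48 h. Over all genes at 24 h, it gave 2884 higher and 1201 lower (main 1702 and 2176), against 2719 higher with only the 24 h libraries, 1122 higher without AS1411 replicate 1 at 24 h, and 898 higher and 1403 lower at an adjusted p under 0.01. Lower counts with library-size scaling were 2372 at 48 h (main 3713), 1192 for the difference between times (1845) and 2050 over time in AS1411 cells (3206). At an adjusted p under 0.01 the difference between times gave 966 higher and 1040 lower, and time in control cells 830 and 1033. Leaving out single 24 h control libraries gave 1125 to 1147 lower genes over time in control cells (main 1723). Levels per longest transcript moved by more than 1 SD for 24 of 40 gene and group means. Fos and Fosb, with 27 to 318 counts per library, limit precision most.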
